A study of Mus musculus with 12 samples.

Results

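A set of 10 transcriptional regulators that steer helper T cells between memory, follicular and effector fates was followed across all 12 libraries: Tcf7, Lef1, Bcl6, Prdm1, Bach2, Id2, Id3, Tox, Satb1 and Ikzf3. These 10 genes were chosen by symbol out of the 52635 genes of the deposited table, and each symbol matched 1 gene. The starting material was naive CD4 T cells from the inbred mouse strain C57BL/6, activated for 24 h through CD3 and CD28 in serum stripped of most retinoids. IL-6, IL-1β, IL-21, IL-23, TNFα and TGF-β1 and antibodies to IFNγ and IL-4 were present in every culture, a mixture that drives cells towards the Th17 state. There were 6 groups of 2 libraries: RARα TG with 10 nM retinoic acid (RA), RARα TG without RA, RARα KO with 10 nM RA, RARα KO without RA, wild type (WT) with 10 nM RA, and WT without RA. RA, made in the body from vitamin A, binds RARα, a nuclear receptor encoded by Rara. The sources used here give neither the construct and promoter behind the TG label nor the allele behind the KO label, and no ages. They do not say that replicates are separate mice, so the p-values reflect only how these libraries vary.

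TCF-1 (from Tcf7) and LEF1 are HMG-box factors that keep T cells in naive, memory and stem-like states, and TCF-1 also favours the follicular helper fate. BCL6, the defining factor of follicular helper T cells, and BLIMP-1 (from Prdm1), which drives effector differentiation, repress each other, and BACH2 restrains effector programmes. ID2 and ID3 bind E proteins and keep them off DNA, TOX is an HMG-box factor of follicular and exhausted T cells, SATB1 organises chromatin in T cells, and Aiolos (from Ikzf3) is a zinc-finger factor of the Ikaros family that is expressed in Th17 cells.

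Promoter windows from RefSeq on GRCm38.p6, running from 250 bases before to 50 after an annotated start, were found for 8 of the 10 genes, 17 windows in all. They were searched on both strands for the nuclear receptor half-site AGGTCA, for the TCF/LEF core CTTTGA and for the STAT-type palindrome TTCNNNGAA, a form that BCL6 sites share. The half-site lay in 2 of the 17 windows, in Satb1 and Tcf7, and in 16.3% of all 32851 windows. The palindrome lay in 3 windows, 2 of Bcl6 and 1 of Bach2, against 8.3% of all, and the core in 3 windows, of Bach2, Bcl6 and Lef1, against 16% of all. Direct repeats of AGGTCA spaced by 1, 2 or 5 bases were in 0 of the 17 windows. A window with a match is shown for Satb1, Tcf7, Bcl6 and Bach2, because these genes changed with RA in TG cells. Capitals mark the AGGTCA match, on the opposite strand, in the first 2 and the TTCNNNGAA matches in the last 2. The core and the palindrome did not overlap in them.
Satb1: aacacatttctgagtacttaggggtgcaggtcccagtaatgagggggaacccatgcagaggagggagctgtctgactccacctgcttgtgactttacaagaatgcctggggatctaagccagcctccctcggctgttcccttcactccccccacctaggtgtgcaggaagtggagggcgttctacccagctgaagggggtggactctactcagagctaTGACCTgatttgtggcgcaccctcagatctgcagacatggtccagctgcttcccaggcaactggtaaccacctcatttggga
Tcf7: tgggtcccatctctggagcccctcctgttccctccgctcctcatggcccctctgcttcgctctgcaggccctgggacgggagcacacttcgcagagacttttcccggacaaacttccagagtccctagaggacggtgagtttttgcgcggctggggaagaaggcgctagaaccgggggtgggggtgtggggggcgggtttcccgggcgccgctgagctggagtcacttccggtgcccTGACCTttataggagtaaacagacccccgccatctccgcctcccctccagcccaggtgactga
Bcl6: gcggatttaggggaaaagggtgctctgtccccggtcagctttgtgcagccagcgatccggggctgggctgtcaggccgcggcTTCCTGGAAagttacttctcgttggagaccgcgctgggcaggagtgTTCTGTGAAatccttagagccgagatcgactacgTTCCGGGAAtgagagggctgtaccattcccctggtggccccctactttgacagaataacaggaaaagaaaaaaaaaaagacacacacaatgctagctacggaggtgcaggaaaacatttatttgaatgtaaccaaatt
Bach2: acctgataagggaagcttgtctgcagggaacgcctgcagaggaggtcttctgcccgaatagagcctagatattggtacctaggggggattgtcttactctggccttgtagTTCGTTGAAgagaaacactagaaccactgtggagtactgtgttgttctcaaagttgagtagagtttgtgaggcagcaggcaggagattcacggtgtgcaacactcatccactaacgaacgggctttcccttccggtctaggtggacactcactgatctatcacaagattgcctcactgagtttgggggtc
In these 5′ to 3′ sequences Satb1 is chr17:51826539-51826838, Tcf7 chr11:52282546-52282845 and Bcl6 chr16:23981234-23981533, all on the minus strand, and Bach2 is chr4:32417185-32417484 on the plus strand. RefSeq gave 5 windows for Satb1, 2 for Tcf7, 2 for Bcl6 and 1 for Bach2. A match describes letters in a window and not a bound site.

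Values are the authors' FPKM, read counts scaled to gene length and library depth, so that levels of different genes can be compared. The depth behind them, recovered from the spacing of low values, was 16289935 to 25534512 reads per library. All 10 CD4 T-cell markers stood above 1 FPKM in every library. Rara stood at 126 and 119 FPKM in TG with RA and 72.8 and 63.3 in TG without RA. It stood at 16.8 and 17.6 in KO with RA and 19.5 and 19.3 in KO without RA, against 12.3 and 14.2 in WT with RA and 16.5 and 18.9 in WT without RA, so the gene-level value did not show a loss under the KO label and directions are drawn against that label. By Xist and its absence, all KO libraries were female, all WT libraries male, and TG replicate 1 male and replicate 2 female at both doses. Sex and the KO label cannot be told apart. The summed FPKM of 8 dendritic and class II markers was higher in replicate 2 than in replicate 1 in 6 of 6 groups. For replicates 1 and 2 without RA it was 27.5 and 43.8 in TG, 26.5 and 73.2 in KO and 23.7 and 157 in WT. Class II genes and Cd74 made up most of it, while Itgax, Flt3, Xcr1 and Siglech reached at most 1.76, 1.29, 0.132 and 0.0176 FPKM. The macrophage markers summed higher in replicate 2 in every group too, with 1.66 and 14.3 in KO and 0.822 and 12.1 in WT without RA.

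Per length, Tcf7 was the most abundant of the 10, at 147 to 355 FPKM over the 12 libraries, and Prdm1 the least, at 0.0794 to 0.309 FPKM. Bach2 (36.5 to 71.5 FPKM), Id2 (48.2 to 69.5) and Ikzf3 (28.3 to 42.9) were high throughout. Satb1 had the widest relative range, from 13.0 to 59.0 FPKM. Lef1 lay at 17.2 to 30.3 FPKM, Id3 at 7.74 to 16.3, Tox at 1.59 to 5.06 and Bcl6 at 2.26 to 4.80. In 6 of 6 groups Tcf7, Lef1 and Tox were higher in replicate 1 than in replicate 2. The summed CD4 T-cell markers were too. The part of cell composition in these replicate differences was not tested, and in bulk RNA fewer cells of a type and less RNA per cell cannot be told apart.

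**Figure D1:**
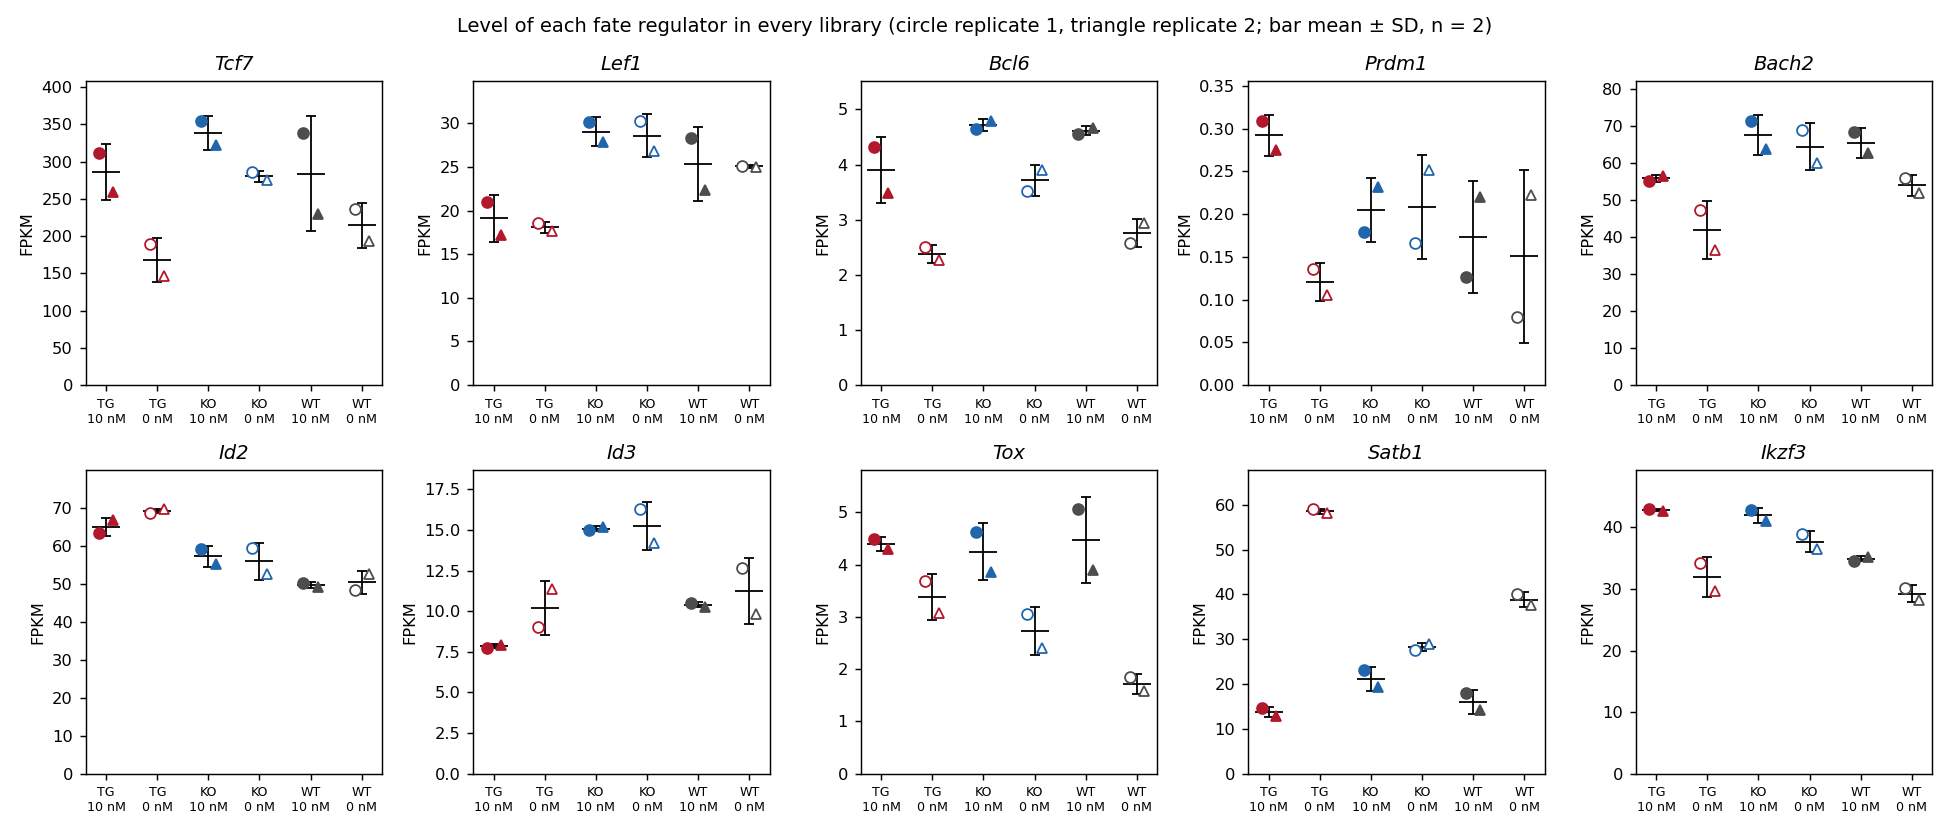
FPKM (y axis, from 0) of the 10 regulators in each library of the 6 groups (x axis), with filled symbols for 10 nM RA, open symbols for 0 nM, circles for replicate 1, triangles for replicate 2, and bars for the mean ± SD of 2 libraries. Satb1 spans 13.0 to 59.0 FPKM, and its TG groups lie at both ends.

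The effect of RA was examined within each genotype. Prdm1 missed the filter of 1 FPKM in 2 or more libraries. Of the other 9 regulators, 5 passed the test in TG (limma, Benjamini-Hochberg adjusted p under 0.05 over all 11922 genes tested). Tcf7, Bach2, Ikzf3 and Bcl6 rose and Satb1 fell, beside a background of 39.1% of all tested genes called in TG, 19.7% higher and 19.4% lower. In WT, 3 of 9 passed: Bcl6 and Tox rose and Satb1 fell, beside a background of 10.1%, with 6.67% higher and 3.47% lower. In the libraries labelled KO, 0 of 9 passed in limma, against a background of 0.143% (0.134% higher), with 3 of 9 at an unadjusted p under 0.05 and 0 by limma voom on reads recovered from the FPKM. At an unadjusted limma p under 0.05 there were 6 of 9 in TG and 4 of 9 in WT. Adjustment was made within each comparison, so a like p can pass in TG and not in KO. Bach2 in TG passed at an unadjusted limma p of 0.0080, and Satb1 in KO did not at 0.0065. The libraries with and without RA did not overlap for 8 of the 9 regulators in TG, 5 in KO and 5 in WT, where this held for 71.1%, 42.3% and 53.8% of all tested genes. The median log2 fold change with RA over the 9 regulators was 0.30 in TG, 0.07 in KO and 0.25 in WT, where that of all tested genes was -0.02, 0.01 and 0.02.

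**Figure D2:**
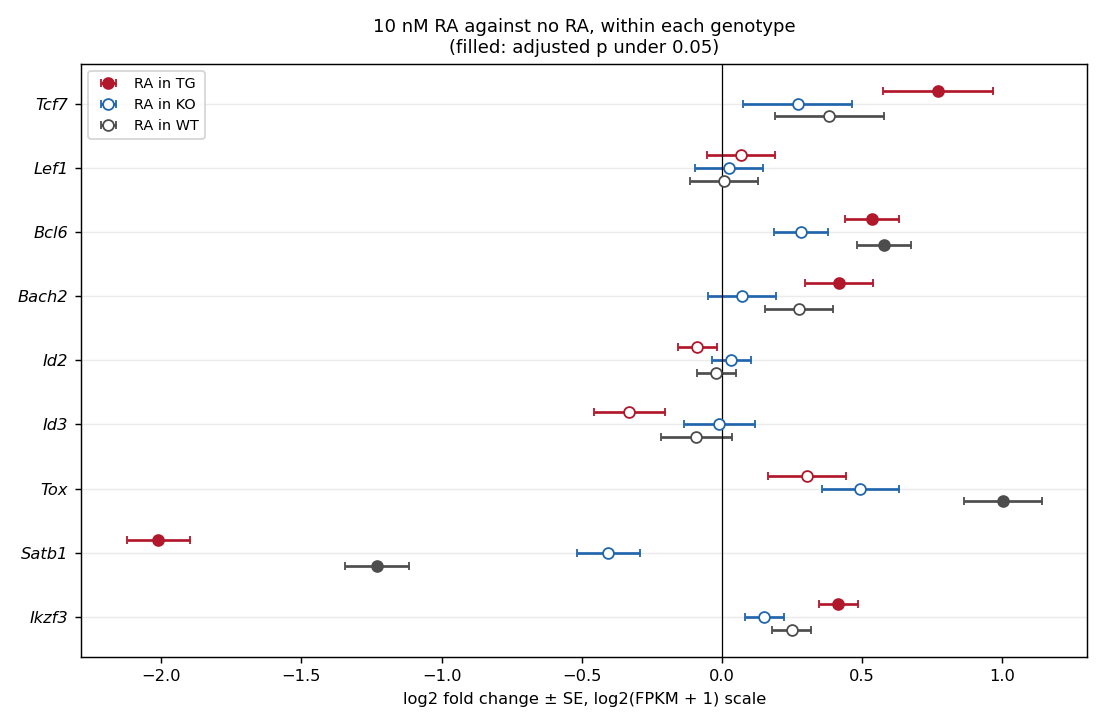
Log2 fold change ± SE with RA (x axis, log2(FPKM + 1) scale) of the 9 tested regulators in TG, KO and WT libraries, with filled points for an adjusted p under 0.05. Satb1 lies furthest from 0 in TG and WT, at -2.01 in TG, -0.41 in KO and -1.23 in WT.

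Satb1 (ENSMUSG00000023927, chromosome 17, 51736187 to 51833290, minus strand, GRCm38) showed the largest RA effect of the 9 in TG and, on the log2(FPKM + 1) scale, in WT. In WT the log2 fold change of Tox was larger in size with a pseudocount of 0.1 (1.32, against -1.28 for Satb1). The same held with voom on recovered reads (1.36 against -1.28). Satb1 stood at 14.6 and 13.0 FPKM in TG with RA, against 59.0 and 58.1 in TG without RA. In KO it stood at 23.0 and 19.3 FPKM with RA, against 27.7 and 28.9 without RA. In WT it stood at 17.9 and 14.2 FPKM with RA, against 40.0 and 37.6 without RA. In every genotype both libraries with RA lay below both without. Satb1 fell by 2.01 ± 0.11 on the log2 scale in TG (limma adjusted p = 3.8e-06) and by 1.23 ± 0.11 in WT (adjusted p = 0.00072), whereas -0.41 ± 0.11 in KO did not pass (adjusted p = 0.25). The fall in TG and that in WT passed under each of 19 alternative settings, with adjusted p-values of at most 0.0005 in TG and 0.049 in WT.

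Without RA the levels of Satb1 were ordered TG above WT above KO, and the libraries of these neighbours did not overlap. With RA the order was turned round, KO above WT above TG, and there the WT and TG libraries overlapped. The RA effect in TG minus that in WT was -0.78 ± 0.16 (limma adjusted p = 0.022), the 1 call among the 9 regulators in this contrast, beside a background of 7.48% called, 4.75% higher and 2.73% lower. That call ended without either WT 0 nM replicate (-0.82 and -0.74 without replicates 1 and 2), without either TG 0 nM replicate (-0.77 and -0.79) and without TG 10 nM replicate 2 (-0.70), and without the filter (adjusted p = 0.052), over adjusted p-values of 0.0074 to 0.085 under all alternatives. The RA effect in KO minus that in WT was 0.83 ± 0.16 for Satb1 and did not pass (adjusted p = 0.29). Its unadjusted limma p was 0.00071, against 0.0010 for TG minus WT, and p-values were adjusted within each contrast. The pass in TG and not in KO therefore does not show a larger difference from WT in TG. For KO minus WT 0.00839% of all tested genes passed, and 0 of the 9 regulators in limma or voom, with 2 at an unadjusted p under 0.05. Tox differed by -0.51 ± 0.19 (adjusted p = 0.83) and Bcl6 by -0.30 ± 0.14 (adjusted p = 0.96) there. Without RA, Satb1 was higher in TG than in WT by 0.58 ± 0.11 (adjusted p = 0.028), a call that ended without any 1 of the 4 libraries compared, without the filter, with a sex term and with only those 4 libraries in the fit (0.54 to 0.63 under all alternatives).

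Tcf7 (ENSMUSG00000000782, chromosome 11, 52252371 to 52283014, minus strand) rose with RA in TG. It stood at 312 and 259 FPKM in TG with RA, against 189 and 147 in TG without RA. The KO libraries held 355 and 322 FPKM with RA, against 286 and 275 without RA, and WT cells had 338 and 229 with RA, against 236 and 193 without RA. The groups did not overlap in TG and in KO, and they did in WT, where the replicates with RA lay on both sides of the higher one without. The log2 fold change was 0.77 ± 0.19 in TG (limma adjusted p = 0.014), a call that ended without TG 0 nM replicate 2 (0.59) or without TG 10 nM replicate 1 (0.64). It was 0.27 ± 0.19 in KO (adjusted p = 0.68) and 0.38 ± 0.19 in WT (adjusted p = 0.26), and neither passed. The difference of the RA effect between TG and WT, 0.39 ± 0.28, did not pass either (adjusted p = 0.47), so the effect is not shown to differ between these genotypes.

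Lef1 (ENSMUSG00000027985, chromosome 3, 131110471 to 131224356, plus strand), the close relative of Tcf7, did not pass with RA in any genotype. It stood at 21 and 17.2 FPKM in TG with RA, against 18.6 and 17.7 in TG without RA. KO cells had 30.2 and 27.9 FPKM with RA, against 30.3 and 26.8 without RA, and WT cells had 28.4 and 22.4 with RA, against 25.2 and 25 without RA. The groups with and without RA overlapped in each genotype, and the 95% interval of the log2 fold change ran from -0.21 to 0.34 in TG and from -0.27 to 0.29 in WT. All 4 TG libraries lay below all KO and WT libraries. The TG minus WT difference was -0.39 ± 0.12 with RA (limma adjusted p = 0.079) and -0.45 ± 0.12 without RA (adjusted p = 0.083), neither past the threshold.

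Tox (ENSMUSG00000041272, chromosome 4, 6686353 to 6991557, minus strand) was lowest in WT without RA. It stood at 4.49 and 4.30 FPKM in TG with RA, against 3.70 and 3.07 in TG without RA. Levels in KO were 4.63 and 3.86 FPKM with RA, against 3.06 and 2.40 without RA, and WT cells had 5.06 and 3.90 with RA, against 1.86 and 1.59 without RA. With RA the libraries of the 3 genotypes overlapped, whereas without RA they were ordered TG above KO above WT with no overlap. Tox rose with RA in WT by 1.00 ± 0.14 (limma adjusted p = 0.0038), and this call held without any 1 library and ended when the fit held WT libraries alone (adjusted p = 0.075). It was 0.30 ± 0.14 in TG (adjusted p = 0.12) and 0.49 ± 0.14 in KO (adjusted p = 0.25). The RA effect in TG minus that in WT was -0.70 ± 0.19 (adjusted p = 0.070), and with voom on recovered reads -0.97 (adjusted p = 0.038).

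Bcl6 (ENSMUSG00000022508, chromosome 16, 23965052 to 23988852, minus strand) rose with RA in TG and in WT. It stood at 4.33 and 3.48 FPKM in TG with RA, against 2.5 and 2.26 in TG without RA. In KO it stood at 4.64 and 4.80 FPKM with RA, against 3.52 and 3.91 without RA, and WT cells had 4.56 and 4.67 with RA, against 2.59 and 2.94 without RA. In every genotype both libraries with RA lay above both without. The log2 fold change was 0.53 ± 0.10 in TG (limma adjusted p = 0.0027), 0.28 ± 0.10 in KO (adjusted p = 0.35) and 0.58 ± 0.10 in WT (adjusted p = 0.0085). The call in TG passed under all 19 alternatives, and that in WT ended without WT 0 nM replicate 1 (0.51) and when the fit held WT libraries alone (adjusted p = 0.080). Bcl6 shares exon sequence with Gm37419 on the opposite strand, which reached at most 1.04 FPKM, and the sources used here do not say whether counting used strand. Partners that share exon sequence with Lef1, Bach2, Tox and Satb1 stayed at or below 0.807 FPKM.

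Prdm1 (ENSMUSG00000038151, chromosome 10, 44437177 to 44528501, minus strand), whose product opposes BCL6, was close to the limit of detection in all groups. It stood at 0.309 and 0.275 FPKM in TG with RA, against 0.136 and 0.105 in TG without RA, which correspond to 29 and 39 reads against 15 and 15. KO cells had 0.179 and 0.232 FPKM with RA, against 0.166 and 0.252 without RA, and WT cells had 0.127 and 0.220 with RA, against 0.0794 and 0.223 without RA. The libraries with RA lay above those without in TG, and the groups overlapped in KO and WT. When no filter on low values was applied, Prdm1 passed in 0 of the 9 comparisons in limma, with 1 at an unadjusted p under 0.05, RA in TG (adjusted p = 0.083).

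Bach2 (ENSMUSG00000040270, chromosome 4, 32238804 to 32586108, plus strand) rose with RA in TG. It stood at 55.3 and 56.7 FPKM in TG with RA, against 47.5 and 36.5 in TG without RA. The KO libraries held 71.5 and 63.8 FPKM with RA, against 68.9 and 60.0 without RA, and WT cells had 68.4 and 62.7 with RA, against 56.0 and 52.1 without RA. The groups did not overlap in TG and WT and overlapped in KO. The log2 fold change was 0.42 ± 0.12 in TG (limma adjusted p = 0.025) and 0.27 ± 0.12 in WT (adjusted p = 0.20). Between TG and WT the RA effect on Bach2 differed by less than 0.25, which did not pass (limma adjusted p = 0.70). A different effect in these genotypes is therefore not shown. The call in TG ended without TG 0 nM replicate 2 (0.23), without TG 10 nM replicate 1 (0.44) and without TG 10 nM replicate 2 (0.40). It also ended without the filter (adjusted p = 0.059) and when the fit held TG libraries alone (adjusted p = 0.077). Without RA, Bach2 was lowest in TG, where the TG minus WT difference of -0.37 ± 0.12 did not pass (adjusted p = 0.14).

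Ikzf3 (ENSMUSG00000018168, chromosome 11, 98464902 to 98546031, minus strand) lies 382 kb from Rara (98927818 to 98974942) on the same chromosome. Tcf7 lies on it too, 46645 kb from Rara. The part of this position in the levels of Ikzf3 under the TG and KO labels was not tested. Ikzf3 stood at 42.9 and 42.7 FPKM in TG with RA, against 34.3 and 29.6 in TG without RA. Levels in KO were 42.9 and 41.1 FPKM with RA, against 39.0 and 36.4 without RA, and WT cells had 34.6 and 35.2 with RA, against 30.2 and 28.3 without RA. In every genotype both libraries with RA lay above both without. Ikzf3 rose by 0.41 ± 0.07 with RA in TG (limma adjusted p = 0.0019), under all 19 alternatives too. Its rise of 0.25 ± 0.07 in WT did not pass (adjusted p = 0.060). Between TG and WT the RA effect on Ikzf3 differed by less than 0.25, which did not pass (limma adjusted p = 0.38). A different effect in these genotypes is therefore not shown.

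Bcl6, Bach2 and Ikzf3 are also expressed in B cells, so the 10 B-cell markers are given beside their rise in TG. The summed FPKM of these markers was 109 and 107 in TG with RA, against 31.3 and 33.7 in TG without RA. Ighm made up most of it, at 101 and 95.9 FPKM with RA, against 27.5 and 27.6 without RA. The other 9 markers summed to 7.93 and 11.1 FPKM with RA, against 3.76 and 6.10 without RA. In WT these 9 summed to 5.49 and 31.4 FPKM with RA, against 3.84 and 28.4 without RA, a difference between replicates of the kind seen for class II markers. None of the 10 markers was at 0 in a whole group. The part of B-cell RNA in the values of these 3 regulators was not tested.

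Id2 (ENSMUSG00000020644, chromosome 12, 25093799 to 25097140, minus strand) was called for TG against WT at both doses, but neither for KO against WT nor with RA. It stood at 63.2 and 66.7 FPKM in TG with RA and 68.7 and 69.5 in TG without RA. In KO it stood at 59.2 and 55.2 FPKM with RA and 59.4 and 52.5 without RA, and WT cells had 50.2 and 49.0 with RA and 48.2 and 52.5 without RA. All 4 TG libraries lay above all other libraries, and within TG those with RA lay below those without. The 95% interval of the log2 fold change with RA ran from -0.25 to 0.07 in TG and from -0.18 to 0.14 in WT.

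Id3 (ENSMUSG00000007872, chromosome 4, 136143497 to 136145755, plus strand) passed in 0 of the 9 comparisons in limma, with 4 at an unadjusted p under 0.05 and 0 by voom. It stood at 7.74 and 7.93 FPKM in TG with RA and 9.0 and 11.3 in TG without RA. Levels in KO were 15 and 15.2 FPKM with RA and 16.3 and 14.2 without RA, and WT cells had 10.5 and 10.3 with RA and 12.7 and 9.80 without RA. All 4 KO libraries lay above all TG and WT libraries, whereas Id2 was highest in TG. The KO minus WT difference was 0.50 ± 0.13 with RA (limma adjusted p = 0.16) and 0.41 ± 0.13 without RA (adjusted p = 0.16). The RA effect in TG, -0.33 ± 0.13, did not pass (adjusted p = 0.069).

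The genotype labels were compared at each dose, which asks how these regulators stand in cells with more Rara (TG) or with the KO label. All these comparisons share the WT libraries of their dose. With RA, 2 of the 9 regulators passed between TG and WT, both higher in TG, beside a background of 11.5% called, 6.84% higher and 4.64% lower. The libraries of TG and WT did not overlap for 6 of 9, against 54.4% of all tested genes. Id2 was higher by 0.38 ± 0.07 (limma adjusted p = 0.0097) and Ikzf3 by 0.29 ± 0.07 (adjusted p = 0.033). The Id2 call ended without WT 10 nM replicate 2 (0.37) or TG 10 nM replicate 2 (0.34), and the Ikzf3 call without any 1 of the 4 libraries compared (0.28 to 0.30), without the filter (adjusted p = 0.060) and with only those 4 libraries (adjusted p = 0.064). Tcf7 and Tox were within 0.25 of WT, with intervals of -0.41 to 0.47 and -0.33 to 0.30, and Id3 differed by -0.37 ± 0.13 (adjusted p = 0.10).

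Without RA, 3 of 9 passed between TG and WT, all higher in TG, beside a background of 4.31% called, 2.25% higher and 2.06% lower. The libraries did not overlap for 7 of 9, against 48.1% of all tested genes. Beside Satb1 these were Id2 (0.45 ± 0.07, limma adjusted p = 0.013) and Tox (0.68 ± 0.14, adjusted p = 0.031). The Id2 call ended without WT 0 nM replicate 1 (0.39) and without either TG 0 nM replicate (0.46 and 0.44). The Tox call ended without any 1 of the 4 libraries compared (0.58 to 0.79) and without either TG 10 nM replicate (0.68), and without the filter (adjusted p = 0.079). With only those 4 libraries in the fit, or with a sex term, 0 of the 3 passed. With the sex term the values were 0.43 for Id2 (adjusted p = 0.051), 0.63 for Satb1 (adjusted p = 0.070) and 0.75 for Tox (adjusted p = 0.070). Tcf7 did not pass, at -0.36 ± 0.19 (adjusted p = 0.37). Id2 and Tox are also expressed in natural killer cells, whose 5 markers summed to 44.4 and 50.2 FPKM in TG without RA, against 11.2 and 14 in WT without RA. Klrd1, a receptor that activated T cells can also express, made up 44.4 and 50.02 FPKM of the sum in TG, against 11.1 and 13.0 in WT. Ncr1, a defining marker, stood at 0 and 0.0763 FPKM in TG, against 0 and 0.623 in WT. The part of natural killer cell RNA in the values of Id2 and Tox was not tested.

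Between KO and WT, 0 of the 9 regulators passed with RA in limma, against a background of 0.881% (0.47% higher, 0.411% lower), with 4 at an unadjusted p under 0.05 and 0 by voom. The libraries did not overlap for 4 of 9 with RA, against 37.2% of all tested genes, and for 8 of 9 without RA, against 47.7%. Without RA, 1 of 9 passed, beside a background of 1.74% called, 1.16% higher and 0.579% lower. This was Ikzf3, higher in KO by 0.36 ± 0.07 (limma adjusted p = 0.047), and the call ended under 14 of 19 alternatives, with adjusted p-values of 0.019 to 0.31 and values of 0.31 to 0.46. It ended without any 1 of the KO or WT libraries or either TG 10 nM replicate, without the filter, with upper-quartile scaling (0.32), with only the 4 libraries compared and with a sex term (0.46). Of the regulators that did not pass without RA, Tox differed by 0.45 ± 0.14 (adjusted p = 0.16), Bcl6 by 0.33 ± 0.10 (adjusted p = 0.15), Tcf7 by 0.39 ± 0.19 (adjusted p = 0.39), Satb1 by -0.44 ± 0.11 (adjusted p = 0.11), and Bach2 by 0.25 ± 0.12 (adjusted p = 0.39). With RA, Satb1 differed by 0.38 ± 0.11 (adjusted p = 0.23), Ikzf3 by 0.26 ± 0.07 (adjusted p = 0.19) and Tcf7 by 0.28 ± 0.19 (adjusted p = 0.68).

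**Figure D3:**
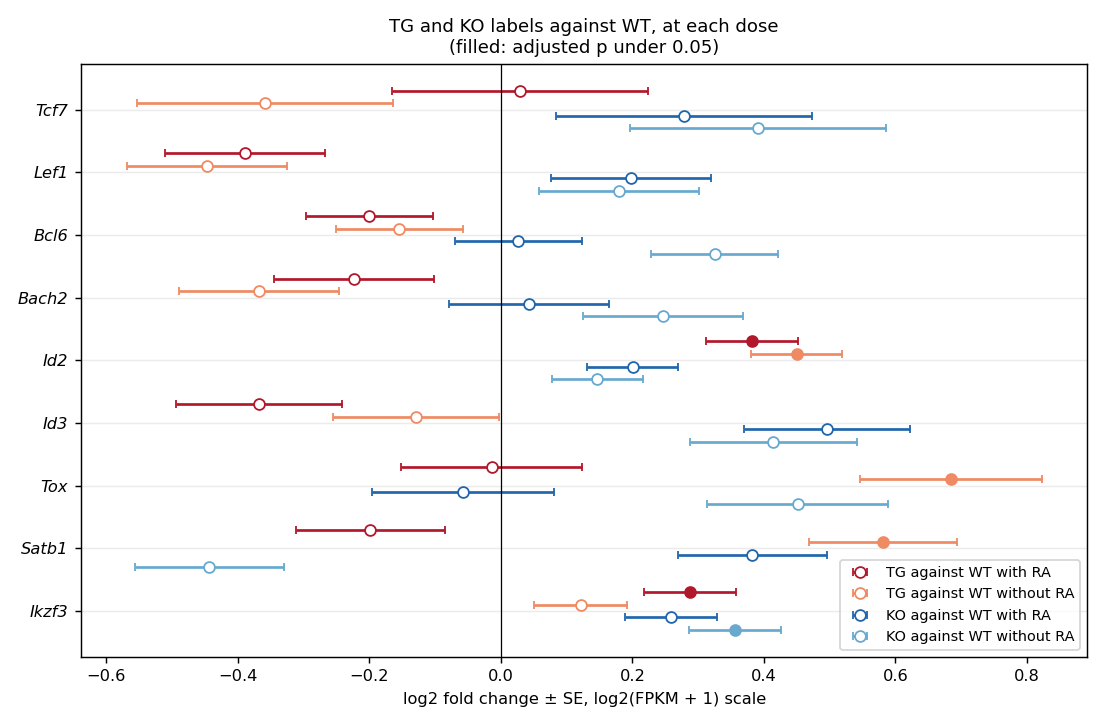
Log2 fold change ± SE (x axis, log2(FPKM + 1) scale) of the 9 tested regulators for TG against WT and KO against WT at each dose, with filled points for an adjusted p under 0.05. Satb1 and Tox are filled for TG against WT without RA, at 0.58 and 0.68, and Id2 at both doses, at 0.38 with RA and 0.45 without.

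Genes that work beside these regulators were taken from 4 lists with 86 symbols, of which 67 were tested. Each list is read against the share of all tested genes called with RA, 39.1% in TG (19.7% higher, 19.4% lower) and 10.1% in WT (6.67% higher, 3.47% lower). The lists were chosen with earlier results of these data known, so a share above the background is not a test of a list. Up to 4 called genes of a list are named per comparison, those with the smallest p. Of 21 tested paralogs and partners, 8 rose and 5 fell with RA in TG, and 1 rose and 1 fell in WT, where 2 of 21 is near the background. Id1, a relative of Id2 and Id3, fell in both, by 2.11 ± 0.24 in TG (limma adjusted p = 0.00023) and by 1.01 ± 0.24 in WT (adjusted p = 0.035). Tle3 and Aes, both of the Groucho family, whose members bind TCF-1 and LEF1, rose in TG by 0.57 ± 0.06 and 0.59 ± 0.08. For Tle3 the RA effect in TG exceeded that in WT by 0.50 ± 0.08 (adjusted p = 0.009). Ikzf4, a relative of Ikzf3, rose in TG by 0.75 ± 0.11, and Maff, a small MAF partner of BACH2, rose in WT by 0.30 ± 0.07.

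Of 16 tested follicular helper genes, 5 rose and 8 fell with RA in TG (median log2 fold change -0.22), and 1 rose and 3 fell in WT (median -0.11), against the 39.1% and 10.1% of all tested genes called. The gene with the smallest p in both was Icos, a costimulatory receptor that follicular helper cells need, which averaged 6.21 FPKM with RA, against 105 without, in TG and 15.4 against 57.7 in WT. Icos fell by 3.89 ± 0.14 in TG (limma adjusted p = 5.3e-07) and by 1.85 ± 0.14 in WT (adjusted p = 0.00041). Cxcr5, the chemokine receptor that guides cells into follicles, moved the other way and averaged 44.4 FPKM with RA, against 10.7 without, in TG and 32.0 against 15.2 in WT. It rose by 1.96 ± 0.15 in TG (adjusted p = 2.2e-05) and by 1.03 ± 0.15 in WT (adjusted p = 0.0046). In TG, Tnfsf8, a ligand of the TNF family, fell by 1.99 ± 0.22 and Sh2d1a, an adaptor of contacts between T and B cells, rose by 0.86 ± 0.09. In WT, the cytokine gene Il21 fell by 0.43 ± 0.06 and Cd40lg, the ligand through which T cells help B cells, by 0.98 ± 0.18. The RA effect in TG minus that in WT passed for Icos (-2.04), Sh2d1a (0.85), Cxcr5 (0.93) and Tnfsf8 (-1.40).

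Of 17 tested naive and memory genes, 7 rose and 3 fell with RA in TG (median 0.44), and 3 rose and 0 fell in WT (median 0.20), against the same 39.1% and 10.1%. Foxp1, a factor of T-cell quiescence, rose by 0.91 ± 0.07 in TG and 0.33 ± 0.07 in WT, and the memory-associated receptor gene Cd27 by 1.82 ± 0.26 in TG and 1.01 ± 0.26 in WT. Klf3 rose by 2.18 ± 0.20 in TG and 0.97 ± 0.20 in WT. Myb, a factor of stem-like memory cells, fell in TG by 1.09 ± 0.17. TG minus WT, the RA effect passed for Foxp1 (0.58), Klf3 (1.21) and, in the other direction, Il7r, the IL-7 receptor of resting T cells (-2.21).

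Of 13 tested effector genes, 3 rose and 5 fell with RA in TG (median -0.13), and 2 rose and 5 fell in WT (median 0.01), against 39.1% and 10.1% of all tested genes. Nfil3 fell by 2.00 ± 0.10 in TG and 0.85 ± 0.10 in WT, and Irf4, a factor needed for effector differentiation, by 0.71 ± 0.05 and 0.38 ± 0.05. Il2ra, the high-affinity chain of the IL-2 receptor, fell by 0.88 ± 0.07 in TG and 0.63 ± 0.07 in WT. Hopx, a homeodomain protein of effector and memory cells, rose in TG by 1.17 ± 0.08, and Il10, an anti-inflammatory cytokine gene, fell in WT by 2.28 ± 0.24. TG and WT differed in the RA effect (TG minus WT) on Nfil3 (-1.14), Runx3 (-0.83), Irf4 (-0.33) and Hopx (0.57).

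In KO, 0 of the 67 passed with RA in limma, with 12 at an unadjusted p under 0.05 and 1 by voom, against 0.143% of all tested genes. Between TG and WT with RA 11 of the 67 passed, where 11.5% of all tested genes did. Named by the same rule, Ikzf4 (0.56), Tle3 (0.29), Aes (0.36), Sh2d1a (0.62) and Tbx21, which encodes T-bet (1.10), were higher in TG, and Icos (-1.19), Btla (-0.73), Cd40lg (-0.72) and Irf4 (-0.38) were lower. Without RA 9 of the 67 passed, where 4.31% of all tested genes did. Icos (0.86), Il7r (1.86), Myb (0.79), Nfil3 (0.79) and Runx3 (0.56) were higher in TG, and Pdcd1, which encodes PD-1 (-0.86), Cd40lg (-0.86), Foxp1 (-0.42) and Txk (-0.88) were lower. Between KO and WT 0 passed with RA in limma, with 11 at an unadjusted p under 0.05 and 0 by voom, where 0.881% of all tested genes passed. Without RA 2 passed, near the 1.74% of all tested genes, Il21 (-0.58) and Il2ra (-0.34), both lower in KO.

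The genes closest in pattern were sought for the 3 regulators whose 6 group means spanned at least 1 on the log2(FPKM + 1) scale, by the root-mean-square (RMS) difference of centred group means among 10346 candidates. For Satb1 they were Tmem35a (0.09), Atp6v0a1 (0.10) and Pdpn (0.12). For Tcf7 they were Armc7 (0.05), H2-T10 (0.05) and Tecpr1 (0.07), where H2-T10 has near relatives among which reads may be divided. For Tox they were Plekho1 (0.11), Fam117a (0.12) and Nmb (0.14). With RA, Tmem35a averaged 0.0876 FPKM in TG, 0.580 in KO and 0.328 in WT, and Pdpn 0.0433, 0.847 and 0.184. In TG without RA they averaged 3.95 and 3.07 FPKM. The log2(FPKM + 1) scale understates changes at such low levels, so their likeness to Satb1 holds on that scale only. It also understates those of Tox, with group means of 1.72 to 4.48 FPKM, and of Nmb (0.930 to 2.38). The same applies to H2-T10 (2.44 to 6.61) and Tecpr1 (3.65 to 7.60) beside Tcf7 (168 to 339). The likenesses to Tox, and those of H2-T10 and Tecpr1 to Tcf7, therefore hold on that scale only as well. Atp6v0a1 averaged 2.46 FPKM in TG with RA and 11.3 in TG without RA, 4.16 in KO with RA and 5.89 in KO without RA, and 3.30 in WT with RA and 7.51 in WT without RA, the same order as Satb1.

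**Figure D4:**
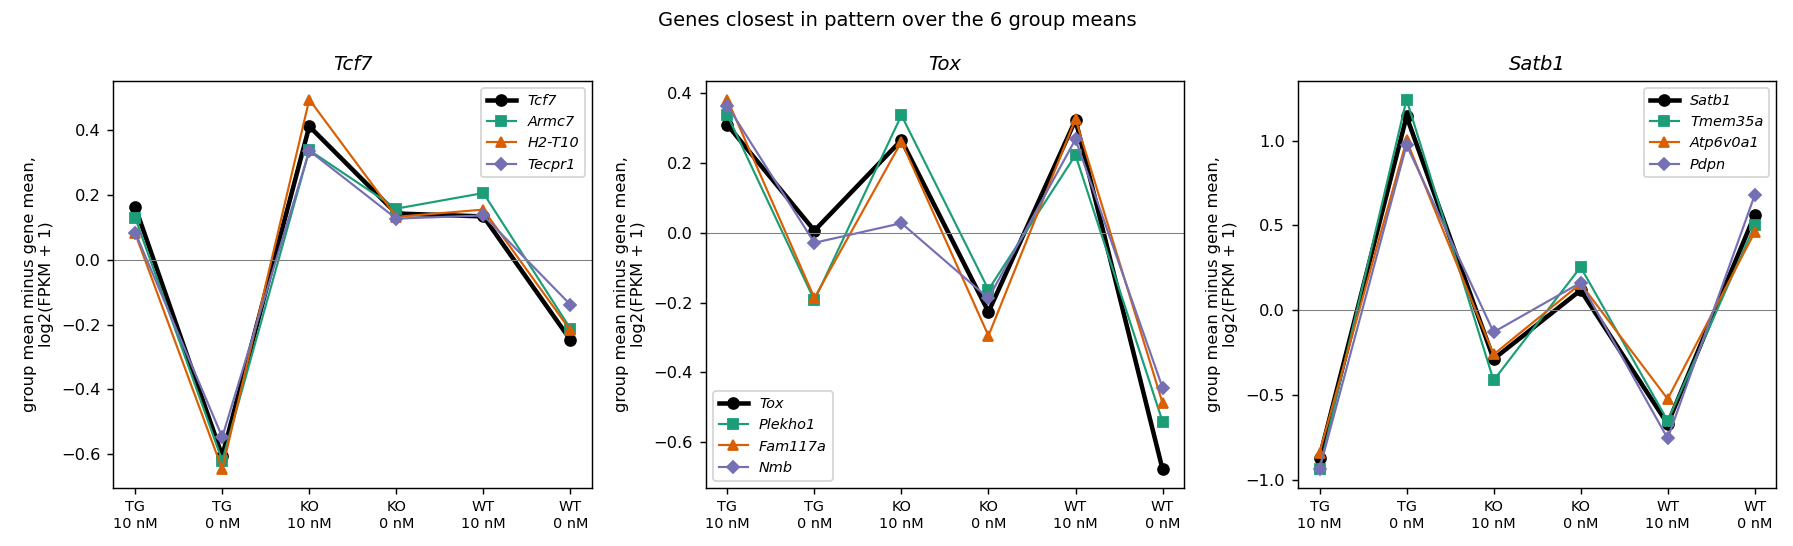
Group means minus the mean of each gene (y axis, log2(FPKM + 1)) over the 6 groups (x axis) for Tcf7, Tox and Satb1 (black) and the 3 genes with the smallest RMS difference from each, with lines that only join the points of a gene. On this scale, which understates changes of low genes such as Tmem35a, the patterns of Satb1 and Tmem35a differ by an RMS of 0.09.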

How the data were processed

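RNA was measured by stranded single-read sequencing of 12 libraries. The deposited values are FPKM per gene, made by the authors, and the tools listed in the submitters' processing notes, without their roles, are DESeq2, HTSeq 0.6.1, STAR and Trimmomatic 0.32, with builds mm10 and GRCm38.p5. The annotation and strand setting of the counting are not stated in these notes. Date-like symbols, 2 in all, were restored by identifier, and gene positions with exon lengths were taken from GENCODE M21. Depth was read from the step of 1 read, which made 95.3 to 95.9% of values of up to 20 reads whole within 0.02 reads, and it limits counting error only.

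The 11922 genes that reached 1 FPKM in 2 or more libraries were tested with limma 3.58.1 in R 4.3.3 (trend) on log2(FPKM + 1), with 1 mean per group over all 12 libraries and two-sided p-values adjusted by Benjamini-Hochberg within each of 9 comparisons at 0.05. The log2 scale understates changes of low genes. Fold changes of the regulators are given where called or at least 0.25 in size after rounding. Values are log2 fold change ± SE. On simulated reads for RA in WT (11562 genes), the test called 8 of 66 genes at a 1.5-fold change, 39 of 65 at 2-fold and 64 of 65 at 4-fold. It also called 8 of 11366 unchanged genes. The simulation gave every gene an overdispersion (spread beyond counting error) of 0.02 and no differences of sex, composition or replicate number. Its rates are therefore not the power in these libraries. Alternatives were a pseudocount of 0.1, no filter, upper-quartile scaling, only the libraries compared, the replicate number as a block, a sex term, each library left out and, chosen after seeing the data, voom on recovered reads. All 10 regulators are named, with up to 4 called members of each list per comparison by smallest p and the 3 nearest patterns. The regulators and lists were chosen with earlier results of these data known. Python 3.11.15 with pandas 2.3.3 and matplotlib 3.10.9 handled tables and figures.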

Additional observations from a re-analysis of the deposited data

Results flagged for a closer look

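The RA effect on Satb1 differed between TG and WT by -0.78 ± 0.16 (log2 ± SE, limma adjusted p = 0.022), by a test of the difference itself. Satb1 stood at 14.6 and 13.0 FPKM in TG with RA and 59.0 and 58.1 in TG without RA, against 17.9 and 14.2 in WT with RA and 40.0 and 37.6 in WT without RA. The difference kept its sign under all 19 alternatives, between -0.94 and -0.62, and did not pass under 6 of them (adjusted p of 0.0074 to 0.085 over all 19), which include leaving out 1 library in 5 cases.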

How the results depend on the processing

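Over 19 alternatives, the 15 calls of regulators kept their direction. Under voom, and under the smaller pseudocount, 15 of 15 stayed past the threshold, with upper-quartile scaling 14, with a sex term 11, without the filter 9 and with only the libraries compared 7, where fewer residual degrees of freedom remain. The number of regulators called moved as follows, against 3 for RA in WT, 3 for TG against WT without RA, 2 with RA, 1 for KO against WT without RA and 1 for the difference of the RA effect between TG and WT. Without the filter, 1 passed for TG against WT without RA, 1 with RA, 0 for KO against WT without RA and 0 for the difference between TG and WT. With only the libraries compared, 1 passed for RA in WT, 0 for TG against WT without RA, 1 with RA and 0 for KO against WT without RA. With a sex term 0 passed for TG or KO against WT without RA, and with upper-quartile scaling 0 for KO against WT without RA. All WT libraries were male and all KO libraries female, so the sex term rested on the TG libraries alone. There sex and replicate number coincide, and the term cannot separate sex from the KO label. With voom 2 passed for the difference between TG and WT. Leaving out each library gave 3 to 6 calls for the RA effect in TG, 0 in KO and 2 to 4 in WT, 0 to 3 for TG against WT without RA and 0 to 2 with RA, 0 to 1 for KO against WT without RA and 0 with RA, and 0 to 1 for the difference between TG and WT. A lone library was assumed to vary like the others. Tcf7 for KO against WT with RA, 0.28 and not called, ranged from -0.00078, without WT 10 nM replicate 2, to 0.56 over left-out libraries. Causes were not tested.

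The labels do not say that equal replicate numbers share an animal. Between the 2 doses of a genotype, deviations of same-numbered libraries correlated over genes at 0.33 in WT, 0.32 in KO and 0.15 in TG. Between genotypes the correlations were 0.00 to 0.21. A pairing within each genotype was not fitted, and the block used here gives 1 replicate effect to all genotypes. With the replicate number as a block, 6 regulators passed for RA in TG, 4 for RA in WT against 3 without the block, and 1 for RA in KO. The block also gave 5 for TG against WT without RA and 3 with RA, 3 for KO against WT without RA and 2 for the difference between TG and WT. The regulator gained for RA in WT had a value under 0.25 before rounding. Values of at least 0.25 that passed with the block and not without it were Tox for RA in TG (adjusted p = 0.013), RA in KO (0.042), KO against WT without RA (0.022) and the difference between TG and WT (0.0068), Lef1 for TG against WT with RA (0.016) and without RA (0.017), Bach2 for TG against WT without RA (0.040) and Satb1 for KO against WT without RA (0.036). Over all genes, with only the libraries compared 142 passed for RA in WT against 1209, 0 for RA in KO against 17, 422 for TG against WT with RA against 1369 and 47 without RA against 514, and 14 for KO against WT with RA against 105 and 26 without RA against 207. With a sex term these were 200 for TG against WT without RA, 28 for KO against WT with RA and 35 without RA. With the block, 823, 174 and 479 passed in those 3 comparisons and 73 for RA in KO. Without the filter 30 passed for RA in KO. Leaving out each library gave 3233 to 4688 for RA in TG (4662 with all), 6 to 19 in KO and 342 to 1171 in WT, 626 to 1309 for TG against WT with RA and 131 to 481 without RA, 44 to 94 for KO against WT with RA and 31 to 183 without RA, and 469 to 774 for the difference between TG and WT (892 with all). Where RA effects of KO and WT were compared and 1 gene passed, 21 passed without the filter, 3 with a sex term, 1 to 4 with a library left out, and 0 with voom or the smaller pseudocount. Upper-quartile scaling moved the median of all genes by at most 0.06 in size. At 10 to 39 reads per library, Prdm1 is limited by depth.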
